A study of Mus musculus with 20 samples.

Results

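The circadian clock is a transcription loop found in most mouse cells. CLOCK and its partner BMAL1, encoded by Arntl, bind E-boxes and switch on the Per and Cry genes, whose proteins then repress CLOCK and BMAL1. The nuclear receptors REV-ERBα and REV-ERBβ, encoded by Nr1d1 and Nr1d2, repress Arntl in a linked loop, while Dbp and Tef encode transcription factors of the PAR bZIP family that pass the rhythm on to output genes through D-boxes. In the spleen and in its immune cells this loop is known to time the expression of cytokine, chemokine and trafficking genes. The levels of these transcripts in a tissue taken once depend on the hour of collection, and the labels of the libraries give neither that hour nor the light schedule.

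The 10 clock genes described here (Clock, Per1, Per2, Per3, Cry1, Cry2, Nr1d1, Nr1d2, Dbp and Tef) were chosen by gene name from a table of 54532 genes. All 10 were found and all 10 passed the filter on low counts, among 18097 genes that did. The table holds RNA-seq counts of whole spleen from 9 gluten-free mouse libraries and 11 control mouse libraries, all at an age of 4 weeks. The gluten-free group was bred on a diet without gluten; the labels call the other group control and name neither its diet nor strain, sex or genotype. Of the gluten-free libraries, 4 carry plain number IDs (7, 8, 9 and 10) and 5 carry IDs with an S (S1, S3, S5, S6 and S8). Of the control libraries, 8 carry plain IDs (1 to 8) and 3 carry S IDs (S1, S2 and S6). What the S stands for is not given in the labels, so the diets were compared over both ID forms, within each form, and by a test of whether the diet difference itself differed between the forms. Nothing in the labels says that each ID was a separate mouse, so the p-values measure the spread between these libraries, which may in part be technical.

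Library totals ranged from 16134584 to 24268237 counts in the gluten-free group and from 13626021 to 19719591 counts in the control group. Checked against markers of spleen cells, B cell markers summed to at least 1150 CPM in each library, and none of the T cell, B cell, erythroid or macrophage markers was at 0 in any of the 4 groups of diet and ID form. Summed markers of pancreas acinar cells reached 7970 CPM in gluten-free S1, where the median of the gluten-free libraries with S IDs was 8.76 CPM, and 713 CPM in control 4, where the median of the control libraries with plain IDs was 10.0 CPM. Among the plain IDs, the 12 erythroid markers summed to between 54900 and 99100 CPM in the gluten-free libraries and between 79800 and 178000 CPM in the control libraries. Whole spleen is a mixture, so fewer cells of a type and less RNA per cell cannot be told apart in any value given here. CPM is the usual library-size unit of RNA-seq, here with TMM scaling of the library totals. A log2 change is the log2 fold change of the edgeR fit, and a gene was called at an edgeR quasi-likelihood p under 0.05 after Benjamini-Hochberg adjustment over all 18097 genes.

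The promoters of the 4 clock genes called in at least 1 comparison are shown for the motifs of the loop itself. Each covers 250 bases before to 50 bases after a gene start in RefSeq, build GRCm38.p6, written 5′ to 3′ on the strand of the gene. Capitals mark an E-box (CACGTG), an E-box-like hexamer (CACGTT, printed as AACGTG where it lies on the other strand) or a D-box (TTACGTAA or TTATGTAA). Clock is shown at the start that the count table gives for the gene (chr5:76304743-76305042, minus strand), Per1 at the start with the motif (chr11:69098699-69098998, plus strand), Per3 at chr4:151044616-151044915 (minus strand) and Cry1 at chr10:85185005-85185304 (minus strand).
Clock: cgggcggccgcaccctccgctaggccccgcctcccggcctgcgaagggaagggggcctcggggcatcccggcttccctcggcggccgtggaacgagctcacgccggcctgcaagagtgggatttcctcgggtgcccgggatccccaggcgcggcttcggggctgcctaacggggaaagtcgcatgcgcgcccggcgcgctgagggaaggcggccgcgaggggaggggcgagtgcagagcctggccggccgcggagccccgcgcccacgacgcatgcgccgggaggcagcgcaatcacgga
Per1: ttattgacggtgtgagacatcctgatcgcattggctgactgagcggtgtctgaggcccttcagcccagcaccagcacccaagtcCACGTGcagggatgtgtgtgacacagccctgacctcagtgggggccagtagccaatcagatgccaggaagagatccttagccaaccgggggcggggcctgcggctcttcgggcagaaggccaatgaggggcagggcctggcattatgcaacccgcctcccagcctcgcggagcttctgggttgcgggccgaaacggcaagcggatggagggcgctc
Per3: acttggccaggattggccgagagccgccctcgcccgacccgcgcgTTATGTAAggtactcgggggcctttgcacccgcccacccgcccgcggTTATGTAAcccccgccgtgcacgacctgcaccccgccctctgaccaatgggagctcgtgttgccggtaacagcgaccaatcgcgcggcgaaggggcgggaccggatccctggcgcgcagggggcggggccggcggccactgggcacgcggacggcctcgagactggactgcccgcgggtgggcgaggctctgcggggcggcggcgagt
Cry1: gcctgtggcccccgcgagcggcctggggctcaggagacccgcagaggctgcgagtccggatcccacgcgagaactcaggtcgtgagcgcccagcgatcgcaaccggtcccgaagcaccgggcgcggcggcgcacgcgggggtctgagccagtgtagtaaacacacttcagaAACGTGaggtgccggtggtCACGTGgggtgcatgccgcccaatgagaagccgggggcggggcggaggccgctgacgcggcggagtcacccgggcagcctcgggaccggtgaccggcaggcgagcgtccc

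Cry1 held an E-box at base -60 and an E-box-like hexamer at base -79, counted from the gene start. Per3 held a pair of D-boxes of the same letters, at bases -205 and -158 counted from the start, and Per1 held 1 E-box at base -166. The Clock promoter shown held none of these motifs, and neither did the other 2 Clock promoters in the table. RefSeq promoters were matched for 9 of the 10 genes, 13 promoters in all. Among those not shown, both Tef promoters held an E-box, Cry2 and Nr1d1 held an E-box-like hexamer each, the other Per1 promoter held none, and Nr1d2 and Dbp held none. On both strands, E-boxes were found in 7.15% of all 32851 promoters in the table, E-box-like hexamers in 4.68% and D-boxes in 1.06%. The element bound by REV-ERB and ROR (TAGGTCA or TGGGTCA), found in 6.45% of promoters, and the cAMP response element (TGACGTCA), found in 1.79%, were absent from the 13 windows. A match is a string of letters in this window and does not show binding.

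Per unit of gene length, Per1 was the most abundant of the 10 genes and Nr1d1 the least. Mean levels over the 20 libraries, in CPM per kilobase of gene length, were 4.94 ± 1.47 for Per1, 3.87 ± 0.616 for Tef, 3.77 ± 0.884 for Cry1, 2.48 ± 0.55 for Nr1d2, 2.46 ± 0.255 for Cry2, 1.77 ± 0.306 for Clock, 1.76 ± 0.298 for Per2, 1.71 ± 0.365 for Dbp, 1.14 ± 0.204 for Per3 and 0.757 ± 0.275 for Nr1d1 (SD, n = 20). Tef and Cry1, then Nr1d2 and Cry2, and then Clock, Per2 and Dbp lay closer together than their spread over libraries. Nr1d1 rested on 20 to 79 counts per library, so its values carry more counting error than those of the other 9 genes, the lowest of which was 38 counts, for Dbp. In the GENCODE vM21 annotation, exons of Sphk2 on the opposite strand cover 18.0% of the exon bases of Dbp, and exons of Thra cover 8.55% of those of Nr1d1. Smaller overlaps touch Cry2 (4.67%, D930015M05Rik) and Tef (2.45%, Gm17597). The strand setting of the counting is not given in the sources used here, so reads in those stretches cannot be assigned to a strand.

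The range over all 20 libraries differed between the 10 genes. The highest library over the lowest was 1.42 for Cry2, 1.70 for Clock, 1.83 for Per2, 1.87 for Tef, 1.92 for Per3, 2.32 for Cry1, 2.45 for Nr1d2, 2.46 for Dbp, 2.96 for Per1 and 3.90 for Nr1d1. The median of that ratio was 2.28 over tested genes averaging 1 CPM or more, so 5 of the 10 clock genes ranged less than the median gene. Of genes within 0.5 log2 units of the same mean level, 79.7% varied less than Per1 within the groups and 12.7% varied less than Cry2. Nr1d1, with the widest range, lay near the middle of genes at its own level, of which 49.8% varied less.

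**Figure D1:**
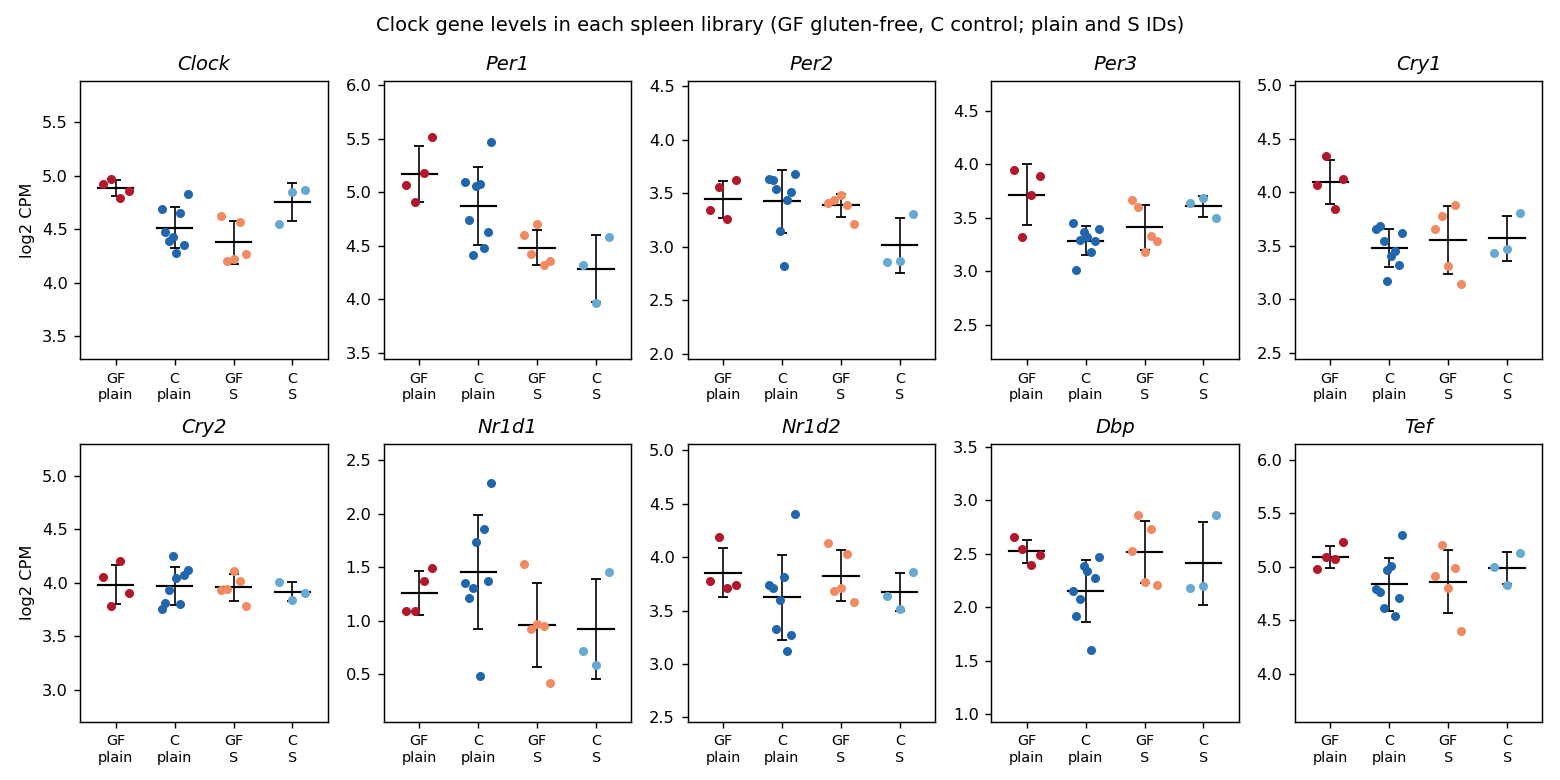
Level of each of the 10 clock genes as log2 CPM (vertical axis, the same span of 2.6 units in each panel) in gluten-free (GF) and control (C) libraries with plain and S IDs; points are libraries, long bars the group mean and whiskers 1 SD. The 4 gluten-free libraries with plain IDs lie above all 8 control libraries with plain IDs for Cry1, and within their range for Nr1d1.

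Over both ID forms together, the comparison asks which clock genes differ in spleens of gluten-free mice. None of the 10 was called, where 0% of the tested genes were. By edgeR 4533 of the 18097 genes had an unadjusted p under 0.05 and the smallest adjusted p was 0.0658; DESeq2 called 1556 genes and limma-voom called 1, none of them a clock gene of the 10. Cry1, a repressor gene, came nearest, with 14.2 ± 3.62 CPM in the gluten-free group (SD, n = 9) and 11.3 ± 1.42 CPM in the control group (SD, n = 11), a log2 change of 0.36 ± 0.12 (SE, adjusted p = 0.0987). Without control S6 the Cry1 value was 0.46 (adjusted p = 0.0126), and without gluten-free S8 it was 0.41 (adjusted p = 0.0198). Those are also the libraries whose removal moved the count over all genes, to 3741 and 2936. The median log2 fold change was 0.16 over the 10 genes and 0.00 over all tested genes.

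Among the plain IDs, Clock, Per3 and Cry1 were higher in the gluten-free libraries and the other 7 clock genes were not called. The count of 3 higher and 0 lower stands beside 17.9% of all tested genes called higher and 22.3% called lower, 40.2% in all. With TMM the median log2 fold change was 0.25 over the 10 genes and 0.03 over all tested genes. Scaled by library totals alone, the median of all genes was 0.30 and 76.1% of calls were higher, against 44.5% with TMM and 57.5% with upper quartile scaling, so fold changes here are relative to that centre. Clock, Per3 and Cry1 were called higher under TMM, RLE and upper quartile scaling and with library totals. They were at 0.36, 0.44 and 0.62 with TMM and at 0.62, 0.71 and 0.89 with library totals.

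Clock (ENSMUSG00000029238, chromosome 5, 76209868 to 76304792, minus strand, GRCm38) encodes the partner of BMAL1 that activates the loop. It had 31.1, 27.5, 28.9 and 30.2 CPM in gluten-free libraries 7, 8, 9 and 10, against a lowest of 19.3, a median of 21.7 and a highest of 28.3 CPM in the 8 control libraries. All but 1 of the gluten-free libraries lay above every control library. The log2 fold change was 0.36 ± 0.10 (SE, 95% interval 0.14 to 0.58, adjusted p = 0.012). It kept its call when each of the 12 libraries was left out in turn (0.33 to 0.41).

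Per3 (ENSMUSG00000028957, chromosome 4, 151003652 to 151044665, minus strand) encodes a period repressor. It had 9.88, 12.9, 14.8 and 15.3 CPM in gluten-free libraries 7, 8, 9 and 10, against a lowest of 7.97, a median of 9.77 and a highest of 10.8 CPM in the control libraries. Gluten-free 7 lay among the controls and the other 3 lay above all of them. The log2 fold change was 0.44 ± 0.13 (SE, 95% interval 0.17 to 0.71, adjusted p = 0.0115). The call was lost without gluten-free 9 (0.39, adjusted p = 0.0504) or gluten-free 10 (0.36, adjusted p = 0.058). The other period genes were not called. Per1 had a log2 change of 0.27 ± 0.17 (SE, adjusted p = 0.223) and Per2 had 0.00 ± 0.15 (SE, 95% interval -0.32 to 0.32, adjusted p = 0.991).

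Cry1 (ENSMUSG00000020038, chromosome 10, 85131700 to 85185064, minus strand) encodes a cryptochrome, which represses CLOCK and BMAL1. Its levels were 20.2, 14.2, 17.3 and 16.7 CPM in gluten-free libraries 7, 8, 9 and 10, against a lowest of 8.90, a median of 11.2 and a highest of 12.7 CPM in the control libraries. It was the only clock gene of the 10 whose libraries did not overlap between the diets, where 21.3% of all tested genes did not overlap and 7.03% did so with the gluten-free libraries on top. The log2 fold change was 0.62 ± 0.12 (SE, 95% interval 0.36 to 0.87, adjusted p = 0.000791), a 1.53-fold higher level, and it stayed called without any 1 library (0.52 to 0.69). Its paralog Cry2, which encodes the other cryptochrome repressor, had 15.8 ± 2.04 CPM in the gluten-free group (SD, n = 4) and 15.7 ± 1.96 CPM in the control group (SD, n = 8), a log2 change of 0.01 with a 95% interval of -0.25 to 0.26.

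The nuclear receptors and output factors were not called in the plain IDs with TMM scaling. Nr1d1 had 2.02, 2.48, 2.70 and 2.02 CPM in gluten-free libraries 7, 8, 9 and 10, all within the control range of 1.29 to 4.78 CPM, and a log2 change of -0.28 ± 0.27 (SE, adjusted p = 0.431). Nr1d2 had a log2 change of 0.19 (adjusted p = 0.457), with gluten-free 7 at 18.2 CPM and the other gluten-free libraries between 12.9 and 13.6 CPM. Dbp had 5.76, 5.17, 5.51 and 6.21 CPM in gluten-free libraries 7, 8, 9 and 10, against a lowest of 2.92, a median of 4.53 and a highest of 5.45 CPM in the control libraries, and a log2 change of 0.35 ± 0.17 (SE, adjusted p = 0.104). Tef had 0.23 ± 0.12 (SE, adjusted p = 0.133). Leaving out control 8, the control library with the highest Per1 and Tef levels, brought Per1 (0.37, adjusted p = 0.045) and Tef (0.31, adjusted p = 0.0137) past the threshold. With upper quartile scaling Dbp (0.44, adjusted p = 0.0442) and Tef (0.33, adjusted p = 0.0435) were called higher.

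Markers of other cells moved with these values in the plain IDs. All 12 erythroid and all 8 cell cycle markers were lower in the gluten-free libraries, with median log2 fold changes of -1.37 and -1.20, while all 10 T cell markers (median 0.71), all 8 neutrophil markers (median 1.71) and all 4 tested platelet markers (median 0.93) were higher. The mean log2 CPM of the erythroid markers was 8.91 to 9.68 in the gluten-free libraries and 10.01 to 10.93 in the control libraries, so the diet and the erythroid content cannot be told apart among these 12 libraries. With that mean as a covariate, Clock had a log2 change of -0.06 (adjusted p = 0.89), Per3 0.70 (adjusted p = 0.135) and Cry1 0.12 (adjusted p = 0.818), and none of the 3 was called. Nr1d2 was then called lower, at -0.97 (adjusted p = 0.0332).

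Among the S IDs, none of the 10 clock genes was called, where 0% of all tested genes were (edgeR, 938 genes at an unadjusted p under 0.05; DESeq2 called 4 genes and limma-voom 0, none of them among the 10). Clock, the only member with an unadjusted p under 0.05, had 24.5, 18.3, 18.5, 23.7 and 19.2 CPM in gluten-free libraries S1, S3, S5, S6 and S8, against 23.4, 28.7 and 29.1 CPM in control libraries S1, S2 and S6. Gluten-free S1 and S6 lay just above control S1 and the other 3 gluten-free libraries lay below every control library, with a log2 change of -0.39 ± 0.15 (SE, adjusted p = 0.911). Cry1 had 12.5, 13.6, 9.83, 14.6 and 8.70 CPM in gluten-free libraries S1, S3, S5, S6 and S8, against 10.7, 11 and 13.9 CPM in control libraries S1, S2 and S6. The gluten-free libraries lay on both sides of the controls, and the 95% interval of the log2 fold change, -0.47 to 0.45, is wide. In simulated data the fit within the S IDs called 1% of genes changed by a log2 of 0.5. The libraries of the diets overlapped for all 10 genes, where 3.7% of tested genes did not overlap, 1.8% higher and 1.9% lower. Per3 had a log2 change of -0.20 ± 0.16 (SE, adjusted p = 0.958), and Per2, the only clock gene with 4 of 5 gluten-free libraries above every control library, had 0.35 ± 0.17 (SE, adjusted p = 0.911).

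**Figure D2:**
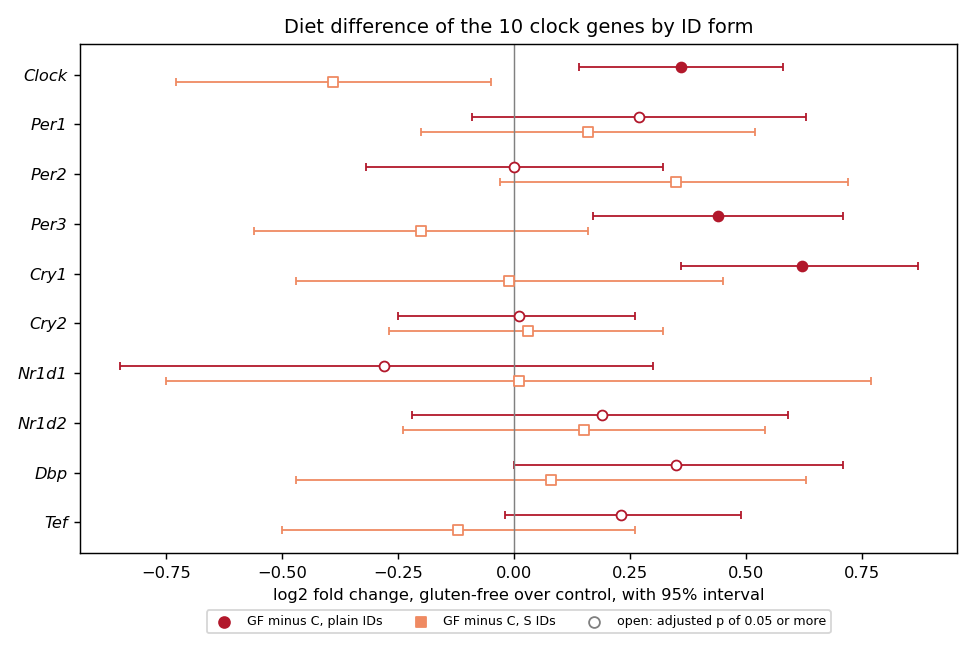
Log2 fold change of gluten-free over control (horizontal axis, 95% intervals from the edgeR fits) for the 10 clock genes, within the plain IDs (circles) and within the S IDs (squares); filled marks were called. Clock, Per3 and Cry1 are filled at 0.36, 0.44 and 0.62 in the plain IDs, and in the S IDs all marks are open.

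The diet difference itself differed between the ID forms for Clock, Per3 and Cry1. The difference of log2 fold changes, S minus plain, was -0.74 ± 0.17 for Clock (SE, adjusted p = 0.00538), -0.64 ± 0.19 for Per3 (SE, adjusted p = 0.0214) and -0.62 ± 0.22 for Cry1 (SE, adjusted p = 0.0405). These 3 lower calls stand beside 9.56% of all tested genes called lower and 15.6% called higher, 25.2% in all. Scaled by library totals, the median of all genes was -0.30, against -0.02 with TMM, and 33% of calls were higher, against 62% with TMM and 46.9% with upper quartile scaling. With the erythroid mean as a covariate the calls of Clock (-0.47, adjusted p = 0.0998) and Cry1 (-0.11, adjusted p = 0.754) were lost, and that of Per3 was not. With no filter beyond 1 count the calls of Per3 (-0.63, adjusted p = 0.0509) and Cry1 (-0.62, adjusted p = 0.0769) were lost. The Clock call held without any 1 of the 20 libraries (-0.83 to -0.69). The Per3 call was lost without control S1 (-0.62, adjusted p = 0.0511), and the Cry1 call held in 10 of the 20 (-0.72 to -0.50, adjusted p of 0.13 without control S6). Of the libraries high in acinar markers, leaving out control 4 ended the Cry1 call (-0.58, adjusted p = 0.0553), and leaving out gluten-free S1 changed no call of the 10 genes in any comparison. For the other 7 clock genes the difference was not called, and its interval was widest for Nr1d1, at -0.61 to 1.2.

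The ID forms were then compared within each diet. Within the gluten-free group, Clock, Per1 and Cry1 were lower with S IDs than with plain IDs, where 15.7% of tested genes were lower, 16.8% higher and 32.4% called in all. Per1 (ENSMUSG00000020893, chromosome 11, 69095217 to 69109960, plus strand), a period repressor that glucocorticoids and other acute signals also induce, had 24.1, 21.3, 25.8, 19.9 and 20.5 CPM in gluten-free S1, S3, S5, S6 and S8, against 29.9, 36.0, 45.7 and 33.5 CPM in gluten-free 7, 8, 9 and 10. The forms did not overlap, and the log2 fold change was -0.75 ± 0.14 (SE, adjusted p = 0.00344). Clock did not overlap either (18.3 to 24.5 CPM in S IDs and 27.5 to 31.1 CPM in plain IDs, log2 fold change -0.55 ± 0.11, SE, adjusted p = 0.00476). Cry1 overlapped, with a log2 change of -0.58 ± 0.16 (SE, adjusted p = 0.0189) that was lost without gluten-free 7 (-0.45, adjusted p = 0.0883). These 2 genes without overlap, both lower, stand beside 28.6% of tested genes without overlap, 9.83% lower and 18.8% higher. With TMM all 10 clock genes had a log2 fold change below 0 (median -0.30), where the median over all tested genes was -0.11. Per3 was at -0.37 and Tef at -0.26 with TMM, and at -0.62 and -0.52 when scaled by library totals. The median over all tested genes, scaled by library totals, was -0.37. With that scaling 22.1% of calls were higher, against 51.7% with TMM. The mean log2 CPM of the erythroid markers did not overlap between these libraries either, at 9.91 to 11.02 in the S IDs and 8.91 to 9.68 in the plain IDs, so the ID form and the erythroid content cannot be told apart within the gluten-free group. With that mean as a covariate none of the 3 genes was called (Clock -0.29, adjusted p = 0.686; Per1 -1.13, adjusted p = 0.302; Cry1 0.09, adjusted p = 0.927), and the count over all genes was 0, against 5871 without it.

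Within the control group no clock gene was called between the ID forms, where 2.2% of tested genes were, 1.66% higher and 0.536% lower in the S IDs. By edgeR 2901 genes had an unadjusted p under 0.05, among them Per1 (-0.60 ± 0.22, SE, adjusted p = 0.173), Per2 (-0.42 ± 0.19, SE, adjusted p = 0.303) and Per3 (0.32 ± 0.13, SE, adjusted p = 0.236). Per1 was called lower with the erythroid mean as a covariate (-0.56, adjusted p = 0.0442). Per3 did not overlap, with 12.3, 12.8 and 11.2 CPM in control S1, S2 and S6, against 7.97 to 10.8 CPM in the plain control libraries. It was the only 1 of the 10 without overlap there, where 4.36% of tested genes did not overlap, 2.47% higher and 1.89% lower in the S IDs. Per1 pointed the same way in both diets, with 19.9, 15.4 and 23.9 CPM in control S1, S2 and S6 and a lowest of 21.1, a median of 29.9 and a highest of 44.2 CPM in the control plain IDs, while Clock had 27.0 ± 3.21 CPM in the control S IDs and 22.9 ± 3.13 CPM in the control plain IDs. All of these gluten-free and control comparisons by ID form share libraries with the diet comparisons above.

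Per1 and 7 other genes known to be induced by glucocorticoids, and 9 immediate early genes, were read beside the clock genes because handling and stress can move Per1. Within the gluten-free group 6 of the 8 glucocorticoid-induced genes were lower in the S IDs, Per1 among them, beside 15.7% of all tested genes, with Zbtb16 at -1.07 (adjusted p = 0.00702) and Fkbp5, the co-chaperone of the glucocorticoid receptor, at -0.38 (adjusted p = 0.0102). Of the immediate early genes 5 of 9 were lower, Nr4a1 (-0.79, adjusted p = 0.00346), Junb (-0.58, adjusted p = 0.00643) and Fos (-1.18, adjusted p = 0.00794) among them. Within the plain IDs 1 glucocorticoid-induced gene was higher in the gluten-free libraries (Sgk1, 0.34, adjusted p = 0.0471) and 1 lower (Dusp1, -0.73, adjusted p = 0.00294), beside 17.9% of all tested genes higher and 22.3% lower. Of the immediate early genes 5 of 9 were higher there, led by Egr1 (0.71, adjusted p = 0.00073), and 1 lower, again Dusp1. The part of these genes in the Per1 values was not tested.

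The other genes of the loop were taken as a list of 19, of which 18 were tested (Rorb was not). Within the plain IDs 8 were higher in the gluten-free libraries and 3 lower, beside 17.9% and 22.3% of all genes. Arntl, which encodes BMAL1, had 17.2 ± 2.50 CPM in the gluten-free group (SD, n = 4) and 12.4 ± 2.65 CPM in the control group (SD, n = 8), a log2 change of 0.47 ± 0.15 (SE, adjusted p = 0.0216). CLOCK and BMAL1, which act as a pair, thus both had higher transcript levels there in the fit without a covariate. With the erythroid mean as a covariate Clock was at -0.06 (edgeR, adjusted p = 0.89), and Arntl was not looked at with it. Rora, a nuclear receptor gene whose product activates Arntl, was higher too (0.41 ± 0.15, SE, adjusted p = 0.038). Among output factors, Hlf, the third PAR bZIP gene, was higher (0.81 ± 0.30, SE, adjusted p = 0.043), and so was Nfil3, which competes with that family at D-boxes (0.62 ± 0.21, SE, adjusted p = 0.0297).

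The repressors Bhlhe40 (0.57) and Bhlhe41 (0.62), the kinase gene Csnk1e (0.44), whose product phosphorylates PER proteins, and the deubiquitinase gene Usp2 (0.51) completed the genes that were higher. The 3 that were lower were Btrc, a ubiquitin ligase subunit that binds phosphorylated PER (-0.97 ± 0.13, SE), Wee1, a cell cycle kinase gene under clock control in mouse liver (-0.56 ± 0.11, SE), and Timeless, a replication fork gene (-0.79 ± 0.10, SE). Timeless had 58.9 ± 6.64 CPM in the gluten-free group (SD, n = 4) and 102 ± 11.5 CPM in the control group (SD, n = 8), and Btrc had 48.1 ± 9.54 CPM in the gluten-free group (SD, n = 4) and 93.9 ± 13.2 CPM in the control group (SD, n = 8). The cell cycle and erythroid markers given above were lower in the same libraries, and the T cell, neutrophil and platelet markers higher. The part of the cell mixture in the 8 higher and the 3 lower genes was not tested. Among the S IDs 0 of the 18 were called by edgeR, and 0 had an unadjusted p under 0.05 (the smallest was 0.0535, for Rora). The diet difference differed between the forms for 6 of the 18, higher in S minus plain for Wee1 and Timeless and lower for Rora, Hlf, Csnk1e and Fbxw11. Over all tested genes 25.2% were called in that comparison, 15.6% higher and 9.56% lower.

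**Figure D3:**
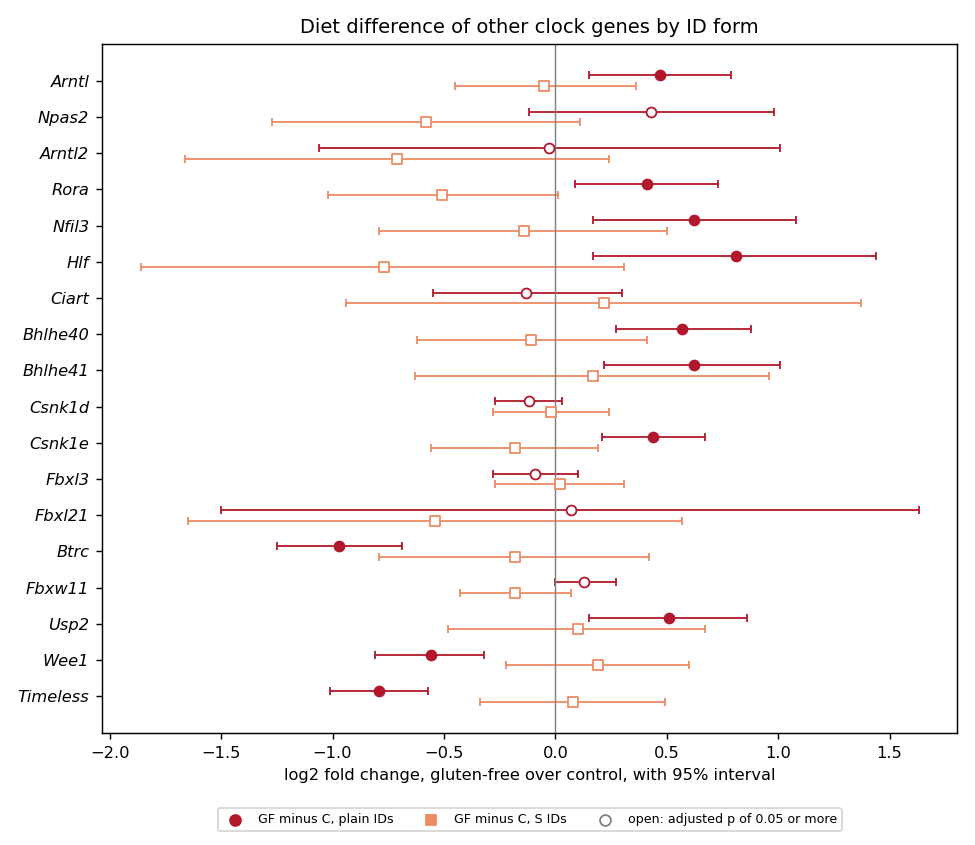
Log2 fold change of gluten-free over control (horizontal axis, 95% intervals from the edgeR fits) for the 18 tested other genes of the clock loop, within the plain IDs (circles) and within the S IDs (squares); filled marks were called. In the plain IDs 8 filled marks lie above 0, Hlf farthest at 0.81, and 3 below 0, Btrc farthest at -0.97, and all S ID marks are open.

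Genes that peak at opposite times of day were set against each other to ask about collection time. In mouse peripheral tissues such as liver, Nr1d1, Dbp, Tef and Per3 peak in the light phase, while Arntl, Npas2, Clock, Nfil3 and Cry1 peak toward the end of the night. With such phases, a later or earlier collection could move the 2 genes of a pair in opposite directions. Whether these genes cycle with these phases in the spleens used here was not tested. The log2 ratio of the light-phase gene over the night-phase gene was taken in each library for 10 such pairs, with no test. The pairs share genes, so the counts of pairs given below are not counts of independent values. In none of the 10 pairs did the diets separate, either within the plain IDs or within the S IDs. Of single genes, 21.3% did not overlap between the diets in the plain IDs and 3.7% in the S IDs.

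Within the plain IDs the ratios with Nr1d1 were lower in mean in the gluten-free libraries. Nr1d1 over Cry1 was -2.83 ± 0.35 in the gluten-free group (SD, n = 4) and -2.03 ± 0.55 in the control group (SD, n = 8), a difference of -0.81. Nr1d1 over Arntl was -2.84 ± 0.36 in the gluten-free group and -2.16 ± 0.55 in the control group, a difference of -0.68. Nr1d1 over Clock differed by -0.57. The ratios with Dbp, of the same phase as Nr1d1, differed less: 0.00 for Dbp over Clock, -0.24 for Dbp over Cry1, -0.11 for Dbp over Arntl, -0.12 for Dbp over Npas2 and -0.29 for Dbp over Nfil3. Tef over Nfil3 differed by -0.40 and Per3 over Clock by 0.06. Of the 10 differences, 8 lay below 0. In the plain IDs the night-phase genes Clock, Cry1, Arntl and Nfil3 and the light-phase gene Per3 were called higher in the gluten-free libraries. The other genes of these pairs were not called, with log2 fold changes of 0.43 for Npas2, 0.35 for Dbp, 0.23 for Tef and -0.28 for Nr1d1. The part of collection time in these values was not tested.

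Within the S IDs 9 of the 10 differences lay above 0, from 0.05 for Nr1d1 over Cry1 to 0.65 for Dbp over Npas2, and Tef over Nfil3 was at -0.03. Dbp over Clock was -1.86 ± 0.31 in the gluten-free group (SD, n = 5) and -2.34 ± 0.32 in the control group (SD, n = 3), a difference of 0.48 with overlapping libraries. A separation was seen in 4 pairs between the ID forms of the gluten-free group, where 28.6% of single genes did not overlap. Dbp is in 3 of these 4 pairs and Nfil3 in 2, so they are not independent. Dbp over Nfil3 was 0.54 to 1.52 in the S IDs and -0.18 to 0.13 in the plain IDs. Tef over Nfil3 was 2.92 to 3.85 in the S IDs and 2.32 to 2.67 in the plain IDs. Dbp over Cry1 was -1.15 to -0.91 in the S IDs and -1.79 to -1.41 in the plain IDs, and Dbp over Clock was -2.09 to -1.34 in the S IDs and -2.41 to -2.26 in the plain IDs. The log2 fold changes of S over plain IDs were -1.02 for Nfil3, -0.55 for Clock and -0.58 for Cry1, all called. They were -0.04 for Dbp (interval of the edgeR fit -0.42 to 0.34) and -0.26 for Tef (interval -0.56 to 0.03), neither called. The median over all tested genes was -0.11. The intervals of Dbp and Tef include 0, so whether the genes of these pairs moved in opposite directions was not settled. The part of collection time in these values was not tested. The other pairs overlapped between the ID forms of the gluten-free group. S minus plain was -0.01 to 0.24 for Per3 over Clock and the 3 ratios with Nr1d1, 0.28 for Dbp over Arntl and 0.36 for Dbp over Npas2. Of all 10 pairs, 9 had a difference above 0. In the control group none of the 10 pairs separated the forms, where 4.36% of single genes did not overlap. Nr1d1 over Clock was -3.83 ± 0.43 in the control S IDs (SD, n = 3) and -3.06 ± 0.40 in the control plain IDs (SD, n = 8).

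**Figure D4:**
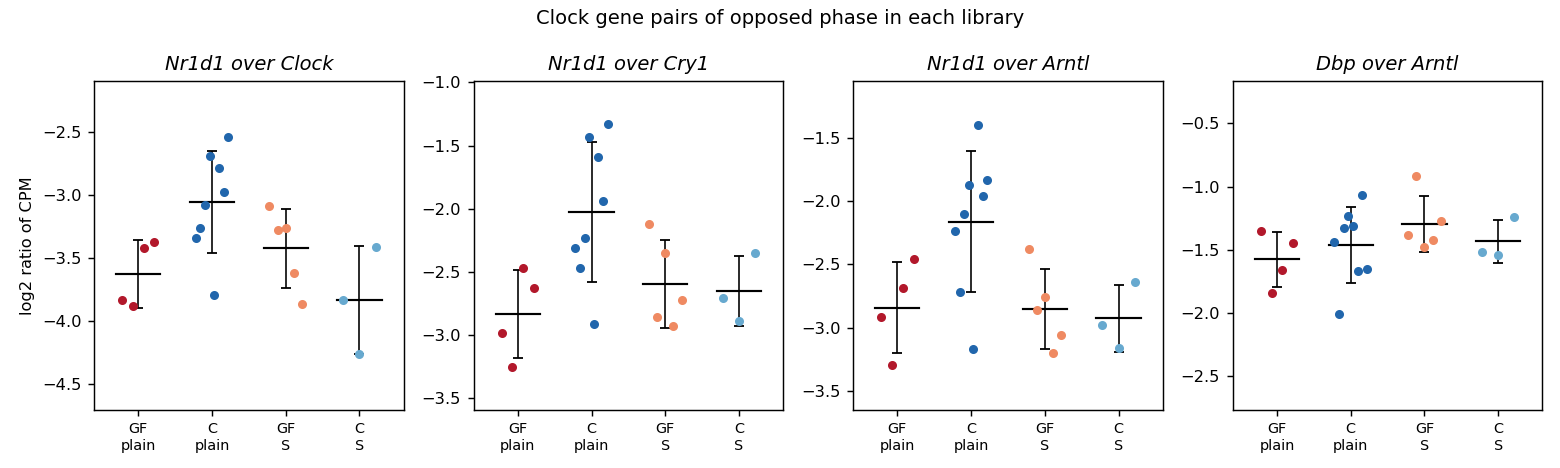
Log2 ratio of CPM (vertical axis) of a light-phase gene over a night-phase gene in gluten-free (GF) and control (C) libraries with plain and S IDs; points are libraries, long bars group means and whiskers 1 SD. For Nr1d1 over Cry1 the plain ID means are -2.83 in gluten-free and -2.03 in control libraries, with overlapping points, and for Dbp over Arntl all 4 groups lie between -2.01 and -0.92.

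Collection at different hours within a group could move genes of opposite phase apart and genes of like phase together. Differences between libraries in depth and cell mixture can move all of these genes together, so the r values below cannot show whether the hours differed. After the mean of each diet and ID form was removed, the 20 libraries gave a Pearson r above 0 in 9 of 10 pairs of opposite phase (-0.06 to 0.62, median 0.23) and in 8 of 10 pairs of like phase (-0.22 to 0.75, median 0.27). No pair of opposite phase had an r below 0 that passed the permutation test, adjusted over the 20 pairs. Nr1d1 and Clock, of opposite phase, had r = 0.62 and rho = 0.52 (permutation p = 0.0129 and 0.0405, adjusted p = 0.129 and 0.251).

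Dbp and Tef, the PAR bZIP pair, was the only 1 of the 20 that passed. Their r was 0.75 (permutation p = 0.0006, adjusted p = 0.012) and their rho 0.75 (permutation p = 0.00116, adjusted p = 0.0232). Without control 6 and control S6, the libraries farthest from the median of Dbp, r was again 0.75 but no longer passed (adjusted p = 0.075). Within the 8 plain control libraries alone r was 0.80 (exact permutation p = 0.0177, adjusted p = 0.207). Over the 45 pairs among the 10 genes, r lay above 0 in 40 and ran from -0.40 (Cry1 and Cry2) to 0.75, with a median of 0.31, as a description with no test.

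**Figure D5:**
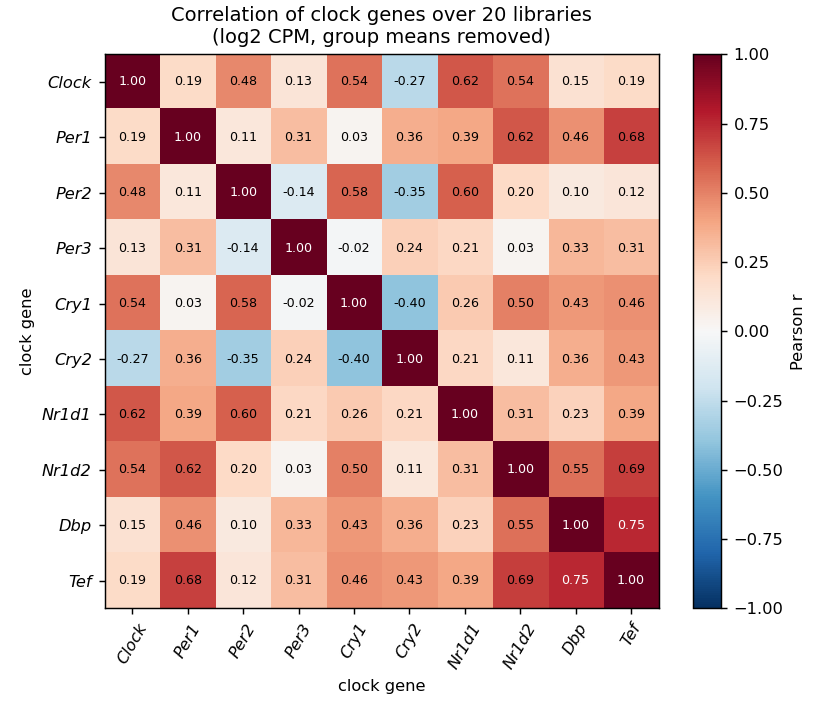
Pearson r between the 10 clock genes over the 20 libraries, from log2 CPM with the mean of each diet and ID form group removed; red is above 0 and blue below 0. Dbp and Tef (0.75) stand highest off the diagonal, Cry1 and Cry2 (-0.40) lowest.

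The genes whose pattern over the 20 libraries was most like that of Dbp and of Nr1d1, after the same removal of group means, were ranked among 15073 genes averaging 1 CPM or more. For Dbp the highest r belonged to Naglu (0.87), Nrbp1 (0.83), Id2 (0.81), Bhlhe40 (0.81) and Ctla4 (0.80), with Tef at rank 22, and the lowest to Pomt1, Cacna1h and AA986860 (-0.78 each) and to Ddi2 and 2010015M23Rik (-0.77 each). For Nr1d1 the highest belonged to Prrc2b (0.89), Tnfrsf1b (0.83), Tnrc18 (0.83) and Zmiz1 (0.82), and the lowest to BC005537 (-0.86), Tiprl (-0.83), Gm6548 (-0.83), Gm9800 (-0.82) and Gm29718 (-0.82). Among clock genes the nearest to Nr1d1 were Clock at rank 268 (0.62) and Per2 at rank 374 (0.60), with Arntl at rank 3377 (0.32) and Dbp at rank 5000 (0.23). Depth and cell mixture differ between libraries and can move many genes together, so these values describe likeness only.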

How the data were processed

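Whole spleen RNA of 20 mouse libraries (9 gluten-free, 11 control, age 4 weeks) was sequenced. The authors deposited raw counts per gene, whole numbers with no normalization, in 1 table. Per the submitters' processing notes, CASAVA, HISAT2 2.0.5 and featureCounts 1.5.0 were used with GRCm38 (mm10); whether counting used strand, which annotation release it used and how it treated multi-mapping reads is not given in the sources used here. Groups came from the library titles.

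Counts were fitted by edgeR 4.0.16 under R 4.3.3 (two-sided quasi-likelihood F test, TMM scaling, filterByExpr over diet and ID form, 18097 genes kept). P-values were adjusted by Benjamini-Hochberg over all tested genes and called under 0.05. The pooled fit held the ID form as a term, the fits within a form or a diet used those libraries alone, and the test of the difference between forms used 4 groups over all 20 libraries. The log2 CPM values used a prior count of 2. Fold changes are gluten-free over control, or S over plain IDs. Correlations used 100000 permutations within groups. RefSeq promoters (GRCm38.p6) were searched on both strands, and exon overlaps came from GENCODE vM21. The fits were tested on simulated data, with 100 genes changed by a log2 of 0.5 and 100 by 1. Within the plain IDs 36% and 78% of these were called in the right direction. Within the S IDs it was 1% and 36%, and for the difference between forms 2% and 32%. Changes of 0.5 would thus mostly be missed in the latter 2 comparisons, so a gene not called there may still differ.

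Depth ran from 13626021 to 24268237 counts per library, which limits precision most for Nr1d1. Libraries of the same group differed by more than counting noise, with chi-square per degree of freedom of 6.10 to 106 over the 47 within-group pairs of libraries. Alternatives were RLE, upper quartile and total-count scaling, other filters, DESeq2 1.42.0, limma-voom (limma 3.58.1), an erythroid covariate, no term for the ID form, a 4-group fit, a replicate block over shared IDs, and leaving out libraries. The members, gene lists and phase pairs were chosen with earlier results of these data known. The genes named are the 10 members, other clock genes where called or needed for a pair, up to 3 of each stress list by smallest p, and the 5 most and 5 least like Dbp and Nr1d1; 2 genes under this rule are not reported here.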

Additional observations from a re-analysis of the deposited data

Results flagged for a closer look

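In groups of 4 to 10 libraries, a library was picked out where its gap to the nearest other was large for the range of its group by Dixon's criterion. Of the 60 groups looked at, 2 held such a library, and chance gives about 1 in 20. Nr1d2, the gene of REV-ERBβ, had 4.19 log2 CPM in gluten-free 7, where the other gluten-free libraries with plain IDs had 3.71 to 3.78. The log2 ratio of Dbp over Npas2 was 1.17 in gluten-free 10, where the other gluten-free libraries with plain IDs had 0.52 to 0.61.

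The diet difference differed between the ID forms for 3 of the 10 clock genes and 6 of the 18 tested other genes of the loop, by the edgeR test of the difference itself (S minus plain, on the log2 scale). It was -0.74 for Clock (adjusted p = 0.00538), -0.64 for Per3 (adjusted p = 0.0214) and -0.62 for Cry1 (adjusted p = 0.0405). Among the other genes it was -0.91 for Rora (adjusted p = 0.0155), -1.57 for Hlf (adjusted p = 0.0443), -0.62 for Csnk1e (adjusted p = 0.0204) and -0.30 for Fbxw11 (adjusted p = 0.0377). It lay above 0 for the genes tied to the cell cycle, 0.76 for Wee1 (adjusted p = 0.0147) and 0.88 for Timeless (adjusted p = 0.00561). The erythroid list also differed, with 7 of 12 markers called, all above 0, and so did the cell cycle list with 8 of 8 above 0. All 6 tested pancreas acinar markers were called above 0 too. Called below 0 were 8 of 8 neutrophil markers (list median -2.03), 3 of 4 tested platelet markers (list median -1.39) and 1 of 10 T cell markers. Over all tested genes 25.2% were called.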

How the results depend on the processing

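Counts over all genes moved by more than 1.5 times in 11 of the alternative fits and in 10 of the fits without 1 library. Pooled over ID forms, 0 genes were called; the count was 1 with no filter beyond 1 count, 1 with limma-voom, 1 with no term for the ID form and 1556 with DESeq2 (403 higher, 1153 lower), and 0 to 3741 on leaving out 1 library (3741 without control S6, 2936 without gluten-free S8). Within the plain IDs (7279) it was 1062 with the erythroid covariate and 5898 to 8679 without 1 library. Within the S IDs (0) it was 4 with DESeq2 and 0 without any 1 library. For the difference between forms (4555) it was 1934 with the erythroid covariate and 3297 to 5428 without 1 library. For the ID form among controls (398) it was 917 with DESeq2, 938 with the erythroid covariate, 649 without control 5 and gluten-free S1, and 0 to 944 without 1 library. That count was 0 without control S1 or S2, 944 without control S6 and 649 without control 5. It was 220 without control 2, 264 without control 3 and 199 without control 7. For the ID form among gluten-free libraries (5871) it was 0 with the erythroid covariate and 4032 to 7470 without 1 library. The cause of these shifts was not tested.

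Among values of the 10 clock genes that were called in the fit reported or in the alternative, 3 changed sign, all with the erythroid covariate. These were Clock in the plain IDs (-0.06, adjusted p = 0.89), Nr1d2 in the plain IDs (-0.97, adjusted p = 0.0332) and Cry1 between forms in the gluten-free group (0.09, adjusted p = 0.927). Values called in neither could change sign too, such as Per1 (-0.14) and Tef (-0.19) in the plain IDs and Clock (-0.26) and Cry1 (-0.03) pooled over ID forms, all with that covariate. With that covariate the difference between forms was also lost for Clock (-0.47, adjusted p = 0.0998) and Cry1 (-0.11, adjusted p = 0.754), and the ID form call in the gluten-free group for Clock (-0.29, adjusted p = 0.686) and Per1 (-1.13, adjusted p = 0.302). With no filter beyond 1 count the difference between forms was lost for Per3 (-0.63, adjusted p = 0.0509) and Cry1 (-0.62, adjusted p = 0.0769), and without control 5 and gluten-free S1 for Cry1 (-0.62, adjusted p = 0.0555). Dbp and Tef in the plain IDs were called with upper quartile scaling (0.44, adjusted p = 0.0442, and 0.33, adjusted p = 0.0435) and with library totals (0.62, adjusted p = 0.0113, and 0.50, adjusted p = 0.0145, and Per1 at 0.52, adjusted p = 0.0429), a setting chosen after seeing the data. The Dbp and Tef correlation without its 2 farthest libraries was 0.75 (adjusted p = 0.075).

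A replicate block over the 4 shared IDs called 0 genes, as did the same 8 libraries without it. Deviations of same-ID libraries had r of -0.26 (7), -0.30 (8), 0.14 (S1) and 0.49 (S6), and 2 of the 8 correlated best with their own ID. Depth limits Nr1d1 most, at 20 to 79 counts.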
